A study of Mus musculus with 6 samples.

Results

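The Cyp4a and Cyp4b1 genes encode cytochrome P450 enzymes that hydroxylate fatty acids, and 7 of them were followed through the kidneys of 2 inbred mouse strains: Cyp4a10, Cyp4a12a, Cyp4a12b, Cyp4a14, Cyp4a31, Cyp4a32 and Cyp4b1. They are the rows of these symbols among 23282 rows of each library. RNA of kidney tissue was sequenced in 3 libraries of C57BL/6 mice (B6) and 3 of BALB/c mice, and the labels name no treatment, transgene, age or sex for either strain. The genes were selected on their CPM in these 6 libraries, where some of the family were known to differ between the strains, so the strain differences of the 7 genes are described below without a test. The 6 libraries held between 8310798 and 10416332 reads, and the first principal component, with 45.2% of the variance, separated the strains.

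Cyp4 enzymes sit in the membrane of the endoplasmic reticulum, take electrons from cytochrome P450 reductase and add a hydroxyl group at or next to the far (omega) end of a fatty acid. The product can be oxidised further to a dicarboxylic acid and shortened in peroxisomes. In the kidney the Cyp4a genes are known from the proximal tubule, where Cyp4a10 and Cyp4a14 are classical targets of the fatty acid receptor PPARalpha, and where Cyp4a12a, an androgen-induced gene, encodes the mouse enzyme best known for making the vasoactive lipid 20-HETE from arachidonic acid. Cyp4b1 prefers shorter fatty acids and also activates some foreign compounds.

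The 7 genes lie in 1 cluster on chromosome 4 (GRCm38, GENCODE M21 annotation), between positions 115299046 and 115647723, a span of 348.7 kb. In the order of the chromosome these are Cyp4a12a (115299046 to 115332815, plus strand), Cyp4a12b (115411624 to 115439034, plus), Cyp4a14 (115486200 to 115496142, minus), Cyp4a10 (115518264 to 115533649, plus), Cyp4a31 (115563649 to 115579015, plus), Cyp4a32 (115600969 to 115621602, plus) and Cyp4b1 (115624725 to 115647723, minus). No annotated exon of another gene overlaps their exons. Their proteins have between 507 and 511 codons.

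The stretch of the coding sequence around the cysteine that holds the haem iron, the reaction centre of every P450, shows how close the relatives are. In these lines, from the B6 reference transcripts and written 5′ to 3′, the codon of that cysteine is in capitals.
Cyp4a10: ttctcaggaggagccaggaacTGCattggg
Cyp4a31: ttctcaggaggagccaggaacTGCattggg
Cyp4a32: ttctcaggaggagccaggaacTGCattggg
Cyp4a12a: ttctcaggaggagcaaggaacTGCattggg
Cyp4a12b: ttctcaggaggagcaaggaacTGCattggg
Cyp4a14: ttctcaggaggatcaaggaacTGCattggg
Cyp4b1: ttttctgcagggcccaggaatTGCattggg
Over the whole coding sequence Cyp4a12a and Cyp4a12b were 98.5% identical with 23 mismatches, Cyp4a10 and Cyp4a31 96.6% with 52 mismatches, and Cyp4a10 and Cyp4a32 97.2% with 43. Cyp4a14 was between 75.4% and 76.0% identical to the other Cyp4a genes, and Cyp4b1 between 60.0% and 61.6%.

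How well reads can be given to 1 copy depends on the 3′ end, because the libraries were made with a kit that reads from the poly(A) tail. The last 60 coding bases are shown for the 2 sets of close copies, with differences from the first line of each set in capitals.
Cyp4a10: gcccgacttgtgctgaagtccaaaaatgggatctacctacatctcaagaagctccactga
Cyp4a31: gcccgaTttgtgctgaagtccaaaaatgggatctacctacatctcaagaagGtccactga
Cyp4a32: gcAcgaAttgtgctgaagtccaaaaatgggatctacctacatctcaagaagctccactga
Cyp4a12a: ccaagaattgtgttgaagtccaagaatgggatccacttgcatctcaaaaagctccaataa
Cyp4a12b: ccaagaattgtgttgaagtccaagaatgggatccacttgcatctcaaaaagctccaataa
Cyp4a31 and Cyp4a32 each differed from Cyp4a10 at 2 of these bases, and Cyp4a12b at 0 from Cyp4a12a. The annotated transcripts go on after the stop codon for 521 bases in Cyp4a10, 911 in Cyp4a31, 813 in Cyp4a12a and 809 in Cyp4a12b. In these genes the coding bases shown lie before the last 300 bases, so they do not show how well 3′ reads can be separated. In the last 300 bases of the transcripts, 51.4% of the 50-base words of Cyp4a12a also occurred in Cyp4a12b, and 53.4% of those of Cyp4a12b in Cyp4a12a. None of the words of Cyp4a10, Cyp4a31, Cyp4a14 or Cyp4b1 occurred exactly in another gene's transcripts, but 49.4% of the Cyp4a10 words lay within 3 mismatches of Cyp4a31, and the same share the other way. The annotated Cyp4a32 transcript ends at its stop codon, 905 bases before the end of the RefSeq gene, and 60.2% of its last words were shared with Cyp4a10 or Cyp4a31. Values of Cyp4a12a and Cyp4a12b are therefore uncertain as to the copy they come from. The Cyp4a32 words are coding sequence, so they do not show where its 3′ reads fall, and its values are uncertain as well. The last 300 bases of Cyp4a10 and Cyp4a31 were 92.4% identical, so how reads were divided between these 2 is also not certain. The build used for both strains, mm10, is the genome of B6. At these genes, fewer BALB/c transcripts and BALB/c reads lost or given to a copy because of sequence differences cannot be told apart.

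All 7 genes passed the filter on low values, a deposited log2 value of at least 1 in at least 3 libraries. The strains did not overlap in 4 of the 7, where they did not overlap in 25.4% of the 13317 genes tested. Of the 4 genes, 3 were higher in BALB/c (12.5% of all genes) and 1 was lower (12.9%). The comparison used to choose the genes is the same, so nothing is read from these counts. Values are CPM, reads of the gene times a scaling factor of the library, with library sums between 980188 and 1043599 CPM. Reads come from the 3′ end, about 1 per transcript molecule, so CPM was not divided by length and levels of different genes are compared on that scale. Folds are differences of mean log2(CPM + 1), BALB/c less B6, with the standard error (SE) of the fit over all genes. In bulk tissue, fewer cells of a type and less RNA per cell cannot be told apart.

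Cyp4a14 and Cyp4a10, the PPARalpha-responsive enzymes, were the most abundant of the family in both strains, and both were higher in BALB/c. Cyp4a14 stood at 657, 623 and 585 CPM in B6 replicates 1 to 3 and at 935, 797 and 713 CPM in the BALB/c replicates. Every BALB/c library lay above every B6 library, and the log2 fold was 0.38 ± 0.10 (SE, n = 3 per strain). By its mean over all libraries Cyp4a14 ranked 127 of 13317 genes.

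Cyp4a10 stood at 345, 359 and 351 CPM in the B6 libraries and at 571, 496 and 469 CPM in those of BALB/c. The B6 libraries were close together, with a coefficient of variation (SD over mean) of 1.96% against 10.4% in BALB/c, and the groups did not overlap. The log2 fold was 0.54 ± 0.09 (SE, n = 3 per strain). Cyp4a14 exceeded Cyp4a10 in each library, by between 1.52 and 1.90 times.

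Cyp4a31, the close copy of Cyp4a10, went the other way and had the lowest fold of the family. It stood at 302, 309 and 284 CPM in the B6 libraries and at 10.2, 6.37 and 6.01 CPM in those of BALB/c. The B6 libraries lay between 284 and 309 CPM, and the BALB/c libraries, with 105, 54 and 60 reads, were all far below them. The B6 mean was 39.7 times the BALB/c mean, and the log2 fold was -5.17 ± 0.16 (SE, n = 3 per strain), a value that the 1 CPM added before the logarithm pulls towards 0.

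Of the summed CPM of Cyp4a10, Cyp4a31 and Cyp4a32, Cyp4a31 took 45.8% ± 1.04 in the B6 and 1.42% ± 0.277 in the BALB/c libraries (SD, n = 3 for both). The sum of these 3 copies, which does not depend on how reads were divided among them, was 648, 670 and 637 CPM for the B6 libraries and 583, 504 and 476 CPM for the BALB/c ones. The BALB/c sums were all below the B6 sums, with a log2 fold of -0.33 ± 0.09 (SE of the 2 means, n = 3 per strain). Cyp4a10 alone was thus higher in BALB/c, and Cyp4a10 summed with its copies was lower. The B6 and BALB/c means were 352 and 512 CPM for Cyp4a10, and 299 and 7.52 CPM for Cyp4a31.

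Cyp4a32, the copy next to Cyp4b1, was near the lower limit of what was counted. It had 9, 13 and 14 reads in B6 and 15, 11 and 14 reads in BALB/c, or between 0.990 and 1.57 CPM over the 6 libraries. The strains overlapped, and the log2 fold was 0.07 ± 0.38 (SE, n = 3 per strain). The 36 reads of B6 carry a 95% Poisson interval of 25.2 to 49.8 and the 40 reads of BALB/c one of 28.6 to 54.5, which cover counting error only.

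Cyp4a12a, the enzyme known for 20-HETE synthesis, had the highest fold of the family. It stood at 4.18, 5.04 and 5.38 CPM in the B6 libraries and at 109, 71.4 and 61.3 CPM in those of BALB/c. The lowest BALB/c library lay above all B6 libraries, and the BALB/c mean was 16.6 times the B6 mean. The log2 fold was 3.76 ± 0.21 (SE, n = 3 per strain).

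Cyp4a12b, its near-identical copy, was low in both strains. It stood at 3.96, 2.02 and 1.68 CPM in the B6 libraries and at 3.39, 2.24 and 3.21 CPM in those of BALB/c. The groups overlapped, and the log2 fold was 0.19 ± 0.37 (SE, n = 3 per strain). Of the sum of both copies, Cyp4a12a took 51.4%, 71.4% and 76.2% in the B6 libraries and 96.3% ± 1.12 (SD, n = 3) in BALB/c. The summed copies had a mean of 7.42 ± 0.628 CPM in B6, against 83.6 ± 25.5 CPM in BALB/c (SD, n = 3 libraries). Their log2 fold was 3.29 ± 0.25 (SE of the 2 means).

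Cyp4a12a is known as a male-biased gene, and the labels give no sex. Xist, the transcript of the inactive X chromosome that female cells make, stood at 124, 104 and 164 CPM in the B6 libraries and at 190, 193 and 188 CPM in those of BALB/c (limma adjusted p = 0.00444), and its exons overlap those of Tsix. The Y-linked genes Kdm5d, Eif2s3y and Uty had 0 reads in every library, which allows up to 3 reads, or between 0.290 and 0.354 CPM, and Ddx3y had 2 reads over the B6 and 8 over the BALB/c libraries. Kap, the androgen-regulated protein of the proximal tubule, had -0.15 ± 0.14 as its log2 fold (SE, limma adjusted p = 0.621), which was -0.33 (0.0438) without B6 replicate 2.

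Of the 9 tested members of a list of 10 male-biased kidney genes, limma called 0 higher and 1 lower in BALB/c (likewise by limma-voom) at an adjusted p under 0.05, where it called 4.17% of all genes higher and 4.93% lower. The gene called was Nudt19, a peroxisomal coenzyme A hydrolase gene, with -0.72 (limma adjusted p = 4.30e-05). Among the others Odc1, which encodes ornithine decarboxylase, had -0.28 (0.116) and Cyp2e1 -0.51 (0.135). Odc1 gained a call without B6 replicate 2 (-0.37, limma adjusted p = 0.0263) and Cyp2e1 without B6 replicate 3 (-0.73, 0.0287), with 33.9% of the Cyp2e1 3′ end words found in other genes. The list's median log2 fold was -0.24, beside 0.00 over all genes tested. The female-biased genes Slc7a12 and Prlr had -0.40 (limma adjusted p = 0.0284) and -0.33 (0.0478). Both calls ended when single libraries were left out: replicate 1 or 3 of either strain for both genes, and also BALB/c replicate 2 for Slc7a12. Over all alternatives their adjusted p reached 0.250 and 0.311.

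Cyp4b1 spread widely within each strain, and the strains overlapped. It stood at 173, 130 and 104 CPM in the B6 libraries and at 151, 136 and 252 CPM in those of BALB/c. BALB/c replicate 3 was the highest library, and the other BALB/c libraries lay within the B6 range. The log2 fold of 0.38 ± 0.18 (SE, n = 3 per strain) was 0.11 without BALB/c replicate 3 and 0.57 without B6 replicate 1.

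**Figure D1:**
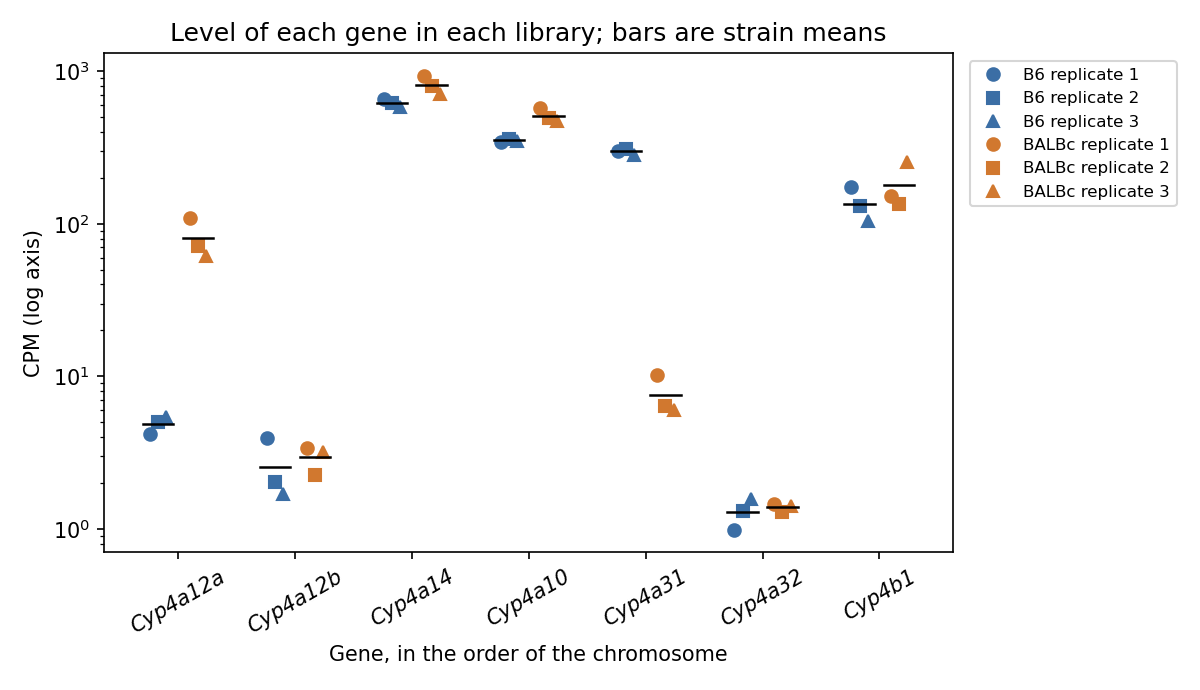
CPM of each of the 7 genes in each library on a log axis, with the genes in the order of the chromosome, 1 point per library and a bar at each strain's mean. Cyp4a12a stands at 4.18 to 5.38 CPM in B6 and 61.3 to 109 CPM in BALB/c, Cyp4a31 at 284 to 309 and 6.01 to 10.2 CPM, and the points of Cyp4a12b, Cyp4a32 and Cyp4b1 overlap between the strains.

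The order of the 7 levels was the same in the 3 libraries of a strain. In B6 it ran from Cyp4a14 through Cyp4a10, Cyp4a31, Cyp4b1, Cyp4a12a and Cyp4a12b to Cyp4a32. In BALB/c it was Cyp4a14, Cyp4a10, Cyp4b1, Cyp4a12a, Cyp4a31, Cyp4a12b and Cyp4a32. Neighbours in these orders had no overlap of their 3 values within a strain, but in B6 replicate 1 Cyp4a12a and Cyp4a12b had 38 and 36 reads, a difference within counting error. In B6 the highest value of Cyp4a32, 1.57 CPM, was also close to the lowest of Cyp4a12b, 1.68 CPM.

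The total of the Cyp4a genes overlapped between the strains, while the shares of 4 genes in it did not. The 6 Cyp4a genes summed to 1314, 1299 and 1229 CPM in the B6 libraries and to 1630, 1374 and 1253 CPM in those of BALB/c, and BALB/c replicate 3 lay inside the B6 range. The log2 fold of the sum was 0.14 ± 0.12 (SE of the 2 means, n = 3 per strain). Of this sum Cyp4a14 made up 48.5% ± 1.32 in the B6 and 57.4% ± 0.564 in the BALB/c libraries (SD, n = 3 for both). The share of Cyp4a10 was 27.5% ± 1.16 and 36.2% ± 1.18, that of Cyp4a31 23.3% ± 0.428 and 0.522% ± 0.0882, and that of Cyp4a12a 0.381% ± 0.0601 and 5.59% ± 0.967. Shares of 1 sum are tied to each other, so a smaller part of Cyp4a31 raises the other shares at unchanged levels.

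**Figure D2:**
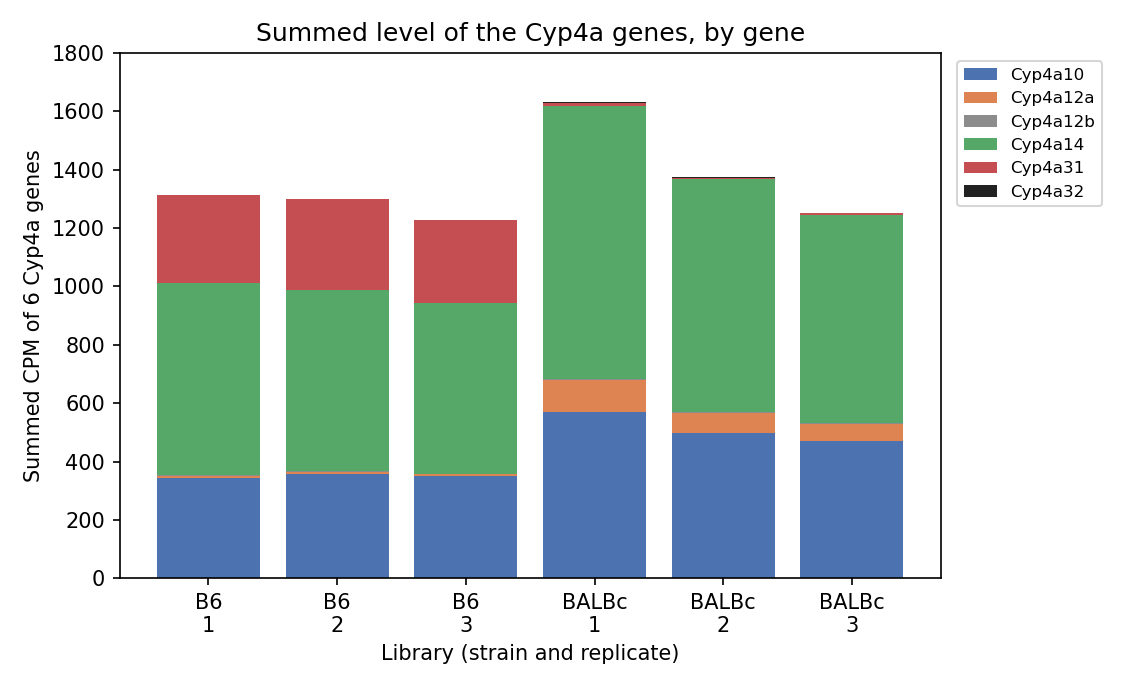
Summed CPM of the 6 Cyp4a genes in each library, with the part of each gene stacked. The sums lie between 1229 and 1314 CPM in B6 and between 1253 and 1630 CPM in BALB/c, and the part of Cyp4a31 is 22.99% to 23.8% in B6 and 0.463% to 0.624% in BALB/c.

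Among the BALB/c libraries the abundant Cyp4a genes and Cyp4b1 did not have the same library on top. Replicate 1 was highest and replicate 3 lowest in Cyp4a14, Cyp4a10, Cyp4a31 and Cyp4a12a, where replicate 1 lay 0.21, 0.16, 0.42 and 0.48 above the strain mean of log2(CPM + 1). In Cyp4b1 replicate 3 lay 0.54 above that mean and replicate 1 at -0.19. In B6 Cyp4b1 was highest in replicate 1, by 0.38, and lowest in replicate 3, at -0.35, whereas Cyp4a10 stayed within 0.03 of its mean in the 3 libraries. This order of the BALB/c libraries was looked at after the values were seen. It held in 4 of the 6 Cyp4a genes, in 11 of 28 tested genes of the PPARalpha list described below (39.3%) and in 16.6% of all genes tested.

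Cyp4b1-ps2, an annotated pseudogene copy of Cyp4b1 inside the cluster, had the same order of libraries as Cyp4b1 in both strains. It stood at 22.2, 15.4 and 12.3 CPM in the B6 libraries and at 15.7, 14.6 and 29.9 CPM in those of BALB/c. The ratio of Cyp4b1 to Cyp4b1-ps2 stayed between 7.80 and 9.66 over the 6 libraries, while Cyp4b1 itself ranged from 104 to 252 CPM. Of the 3′ end words of Cyp4b1-ps2, 38.6% also occur in Cyp4b1, so its reads cannot be assigned with certainty.

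**Figure D3:**
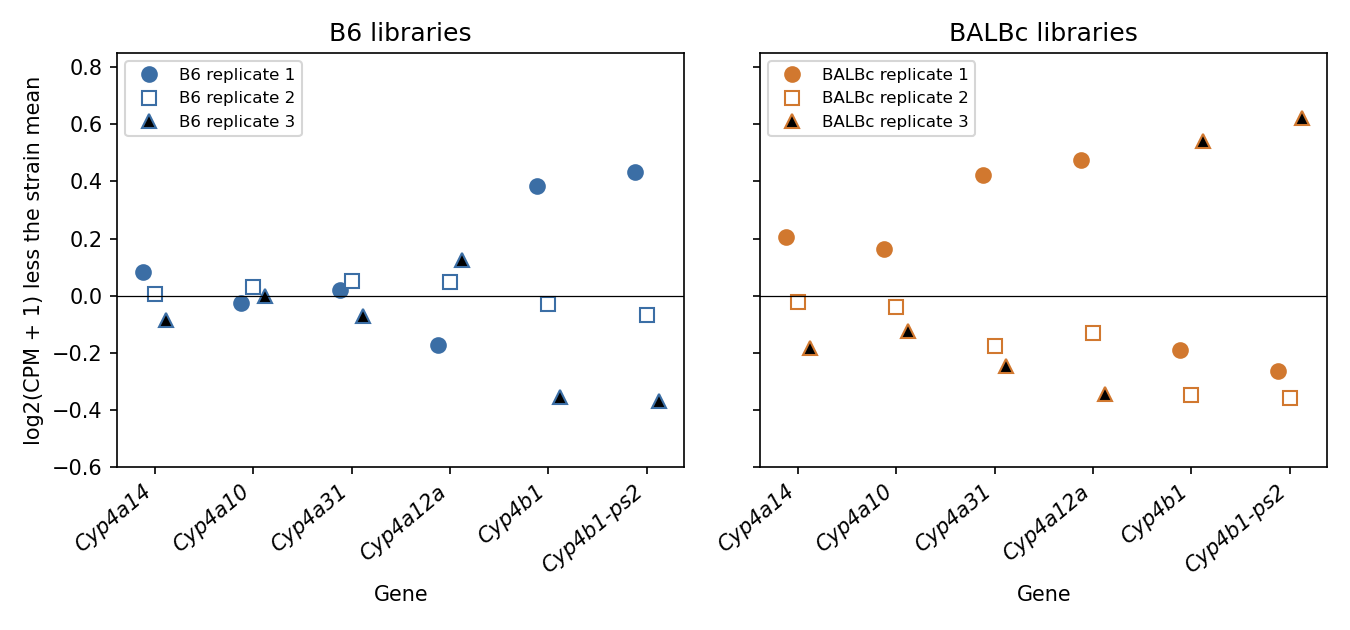
Deviation of each library from its strain's mean of log2(CPM + 1), for 5 of the genes and Cyp4b1-ps2, with B6 on the left and BALB/c on the right and 1 point per library. In BALB/c the 4 Cyp4a genes have replicate 1 on top (0.16 to 0.48), and Cyp4b1 and Cyp4b1-ps2 have replicate 3 on top (0.54 and 0.62).

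The genes next to the cluster were compared to see how far along the chromosome such differences went. Within 1 Mb of the cluster 28 other genes were tested, and 1 of them, Trabd2b, differed between the strains by limma, where 9.09% of all genes did. Trabd2b, which encodes a metalloprotease, had a B6 mean of 78.2 ± 3.10 CPM and a BALB/c mean of 136 ± 13.4 CPM (SD, n = 3), which is 0.79 ± 0.11 on the log2 scale (SE, limma adjusted p = 2.79e-05). Its start lies at -892 kb from that of Cyp4a12a.

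The nearest tested genes on either side did not pass the test. Pdzk1ip1, a small membrane protein gene of the proximal tubule, stood at 627 ± 50.4 and 697 ± 55.8 CPM (SD, n = 3), and its log2 fold was 0.15 ± 0.09 (SE, limma adjusted p = 0.359). Efcab14 had 0.03 ± 0.12 (limma adjusted p = 0.920). The 28 folds ranged from -0.72 to 0.79 with a median of -0.01, and Akr1a1, Pik3r3 and Foxd2os had -0.24, -0.44 and -0.72 (limma adjusted p = 0.103, 0.151 and 0.198). Akr1a1 gained a call without B6 replicate 2 (-0.29, limma adjusted p = 0.0333). Exons of Pik3r3 overlap those of Gm49337.

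**Figure D4:**
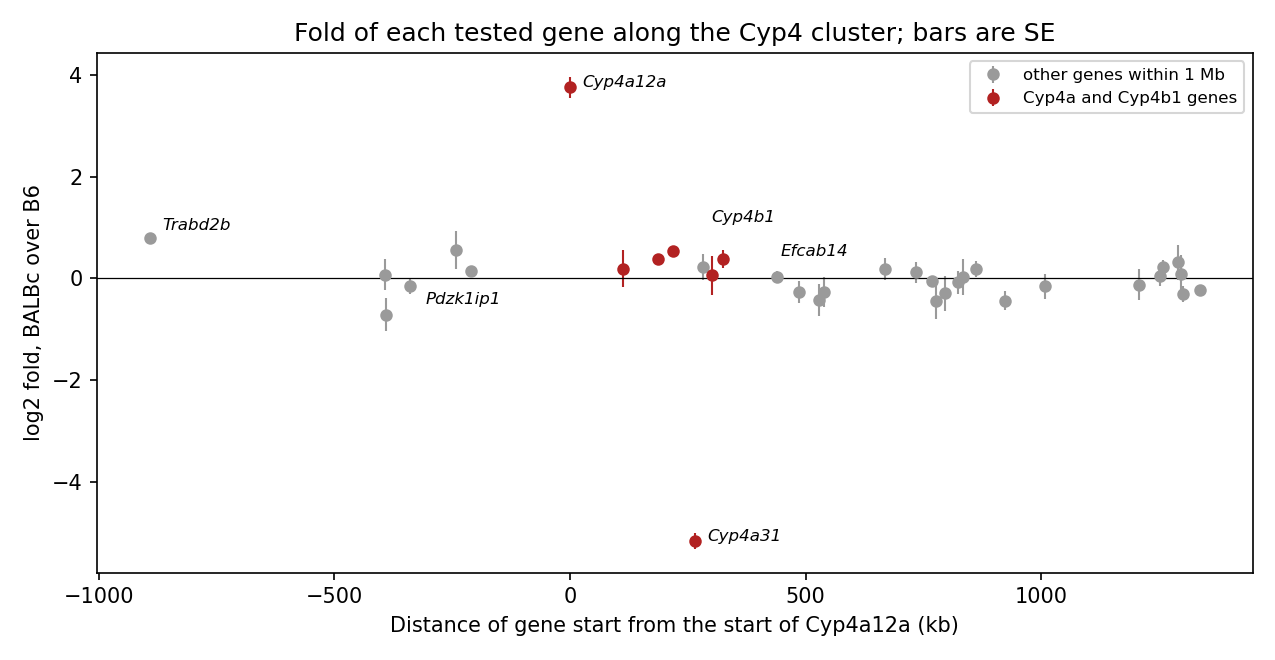
Log2 fold, BALB/c over B6, of each tested gene within 1 Mb of the cluster against the distance of its start from that of Cyp4a12a in kb, with bars of 1 SE. Cyp4a12a at 3.76 and Cyp4a31 at -5.17 lie outside the range of the 28 other genes, -0.72 to 0.79.

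The levels of relatives elsewhere in the Cyp4 family were low. Of 13 other Cyp4 genes 4 were tested, and limma called 0 of them, with 0 at an unadjusted p under 0.05, and limma-voom, run on reads, called 0. Over all genes 9.09% were called, so a count of 0 among 4 genes shows nothing particular to them. Cyp4f13 had a mean of 14.5 CPM in either strain, with an SD of 2.61 in B6 and 1.10 in BALB/c (n = 3), and 7.57% of its 3′ end words occur in other Cyp4f genes. The log2 folds were 0.01 for Cyp4f13, 0.25 for Cyp4f14, 0.54 for Cyp4f16 and 0.12 for Cyp4v3 (limma adjusted p = 0.981, 0.779, 0.476 and 0.863). Cyp4a29, Cyp4a30b, Cyp4f40 and Cyp4x1 had 0 reads in every library. Among the 5 tested genes that pass electrons to P450 enzymes limma called 0, again beside 9.09% of all genes, with 0 at an unadjusted p under 0.05 and 0 by limma-voom. Por, the P450 reductase, had 0.11 ± 0.10 (SE, limma adjusted p = 0.607), Cyb5a 0.10 (0.572), Cyb5r3 0.11 (0.661) and Cyb5b -0.07 (0.783).

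PPARalpha is the receptor through which fatty acids and fibrates induce Cyp4a10 and Cyp4a14. Its gene Ppara had B6 and BALB/c means of 154 ± 8.53 and 144 ± 1.68 CPM (SD, n = 3), and its log2 fold was -0.09 ± 0.10 (SE, limma adjusted p = 0.671). Of 28 tested genes of the list, which holds the receptor, its partner and targets, 5 were higher and 3 lower in BALB/c, or 28.6% against 9.09% of all genes. The list's median log2 fold was 0.06, beside 0.00 over all genes. The called genes went both ways.

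Angptl4, a secreted inhibitor of lipoprotein lipase, stood at 4.18, 4.03 and 3.81 CPM in the B6 libraries and at 35.0, 26.1 and 12.9 CPM in those of BALB/c, and rose by 2.25 ± 0.30 (SE, limma adjusted p = 1.15e-05). In this gene BALB/c replicate 1 was highest and replicate 3 lowest, as in Cyp4a10 and Cyp4a14. Acot2, a mitochondrial acyl-CoA thioesterase, rose by 0.64 (limma adjusted p = 6.40e-04). Acadm, the medium-chain acyl-CoA dehydrogenase, had -0.59, Plin2 -0.75, Acot1 0.49 and Pex11a 0.44 (limma adjusted p = 9.57e-04, 0.00921, 0.00834 and 0.0192), and these 4 are named beyond the rule on the smallest p values.

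Among the enzymes that take up the products of omega-hydroxylation, 0 of 11 tested were called higher and 2 lower in BALB/c by limma and by limma-voom, where limma called 4.17% of all genes higher and 4.93% lower. One of them was Crot, the peroxisomal carnitine acyltransferase, with -0.52 ± 0.12 (SE, limma adjusted p = 0.00661), which lost its call when B6 replicate 1 was left out. The alcohol dehydrogenase gene Adh1 had 0.29 (limma adjusted p = 0.0942), with a call at 0.41 (0.0414) without B6 replicate 1, and the acyl-CoA synthetase gene Acsl1 0.18 (0.350). Exons of Crot, Adh1 and Acsl1 overlap those of unnamed gene models. The list's median log2 fold was -0.05.

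Arachidonic acid is a substrate of Cyp4a12a, and a list of genes from its metabolism, at several steps, was compared. Of the 17 tested genes limma called 1 higher and 4 lower in BALB/c, or 29.4% against 9.09% of all genes. Their median log2 fold was -0.13. Cyp2c44, an epoxygenase, stood at 66.6, 83.0 and 57.3 CPM in the B6 libraries and at 10.5, 7.20 and 10.9 CPM in those of BALB/c, and had -2.74 ± 0.19 (SE, limma adjusted p = 4.84e-10). Cyp2j5, another epoxygenase and the most abundant of the named genes of this list, had -0.44 ± 0.10 (SE, limma adjusted p = 0.00531), with means of 1506 ± 179 and 1109 ± 106 CPM in B6 and BALB/c (SD, n = 3). Ptgds, a prostaglandin D synthase, rose by 0.84 (limma adjusted p = 0.00253). Lta4h, the leukotriene A4 hydrolase, had -0.69 (0.0123), which lost its call when B6 replicate 1, B6 replicate 3 or BALB/c replicate 1 was left out. Ephx2, the soluble epoxide hydrolase, had -0.36 (0.0227) and was the remaining call.

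**Figure D5:**
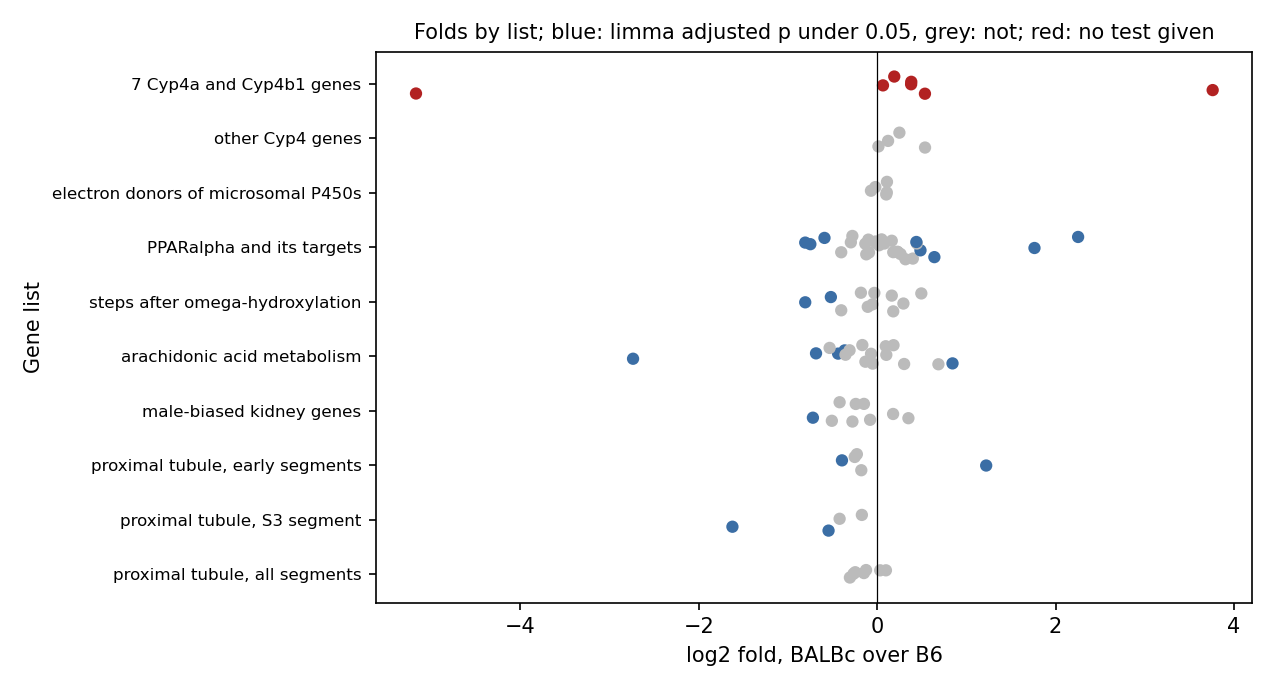
Log2 folds, BALB/c over B6, of the tested genes of the lists named on the axis, with blue points for genes at a limma adjusted p under 0.05, grey points for the others and red points for the 7 Cyp4a and Cyp4b1 genes. The red points reach from -5.17 to 3.76 and those of the PPARalpha list up to 2.25.

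The kidney segments in which Cyp4 genes are known to be expressed were checked with marker genes. The 7 general proximal tubule markers summed to between 9024 and 9838 CPM in B6 and between 8152 and 9470 CPM in BALB/c, none was at 0, and limma called 0 of them, with 3 at an unadjusted p under 0.05 (limma-voom called 1), beside 9.09% of all genes called. The 5 markers of the early segments summed to 1730 to 2040 CPM and 2061 to 2295 CPM, with Slc5a12 called higher (log2 fold 1.22) and Slc22a8 lower (-0.39). The higher sum in BALB/c came with Slc5a12 alone, at 374 and 863 CPM on average in B6 and BALB/c, while the other 4 had folds below 0 (Slc5a2 -0.18, Slc22a6 -0.23, Gatm -0.25 and Slc22a8) and the list's median was -0.23. Slc22a8 lost its call when B6 replicate 1, BALB/c replicate 1 or BALB/c replicate 2 was left out.

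The 4 markers of the S3 segment, the straight last part, summed to 196 to 217 CPM in B6 and 146 to 168 CPM in BALB/c, with no overlap. Of these, Slc7a13, an amino acid transporter, went from 3.85 ± 1.05 to 0.556 ± 0.141 CPM (SD, n = 3) and had -1.62 ± 0.38 (SE, limma adjusted p = 0.00629), and lost this call when B6 replicate 1 was left out. Slc5a1 had -0.54 ± 0.12 (limma adjusted p = 0.00358). The remaining markers, Atp11a and Cyp7b1, overlapped between the strains and had -0.17 and -0.42 (limma adjusted p = 0.453 and 0.592). Limma thus called 2 of the 4 markers, beside 9.09% of all genes. Cyp4a12a was higher and Cyp4a31 lower in the strain in which the sum of the S3 markers was lower. The part of tubule segments in the Cyp4 folds was not tested. Markers of fat, adrenal cortex and liver summed to between 14.3 and 38.2 CPM over the 6 libraries, with the adrenal enzyme gene Cyp11b1 at 0 in all. The fat genes Adipoq, Plin1 and Cfd were higher in B6 replicate 2 than in the other B6 libraries. Cfd stood at 18.3 CPM there, against 0.880 and 0 CPM in B6 replicates 1 and 3. Star of the adrenal cortex and Alb of the liver were not higher in that library. The part of this difference in other results was not tested. Among the markers of other kidney cells, Slc12a3 of the distal tubule was called lower (-0.53).

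For each of the 7 genes the 2 most similar patterns were sought among the 8710 other genes whose mean reached 10 CPM. Likeness was the root mean square difference of log2(CPM + 1) over the 6 libraries, after taking off each gene's own mean. This measure includes the difference between the strains. Cyp4a31 was nearest to Agt, which encodes angiotensinogen (0.30), and Apob (0.37), whose log2 folds were -5.06 and -5.27. In BALB/c the means of Agt and Apob were only 0.503 ± 0.313 and 1.85 ± 0.753 CPM (SD, n = 3). At such levels the 1 CPM added before the logarithm weighs heavily on the folds and on the likeness. Cyp4a12a had no gene closer than the complement gene C3 (0.51) and Rnase4 (0.52), with log2 folds of 3.42 and 2.95. Exons of Rnase4 overlap those of Ang.

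Cyp4a10 was nearest to Fgfrl1 (0.05) and Spsb2 (0.06), and Cyp4a14 to Orai3 (0.03) and Lrrc17 (0.04), with log2 folds between 0.35 and 0.64. Cyp4b1 was nearest to its pseudogene copy Cyp4b1-ps2 (0.10) and Sp4 (0.10). Cyp4a12b was nearest to Lmo2 (0.10) and Rpa1 (0.11), and Cyp4a32 to Snrpd3 (0.03) and Fkbp8 (0.04). Cyp4a12b and Cyp4a32 rest on 15 to 36 and 9 to 15 reads in a library, where counting error is wide.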

How the data were processed

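Kidney RNA of 3 B6 and 3 BALB/c mice was measured, with Trizol extraction and a Lexogen QuantSeq kit per the labels' protocols. Bowtie2, bedtools and the build mm10 were used per the submitters' processing notes; for versions, annotation, strand and multiply aligned reads the answer is not given in the sources used here. Each file as deposited by the authors holds 1 log2 value per symbol and library. Taken off the log2 scale, less 1, they summed to 980188 to 1043599 per library, and 100% of the values of up to 20 reads came out whole (tolerance 0.1 read), so they were taken as log2(CPM + 1) with a scaling factor per library. A read was worth 0.0968 to 0.118 CPM. The ribosomal Rn45s row took 12.7% to 15.6% of reads.

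limma 3.58.1 (R 4.3.3) with strain as the term and a trended variance prior was fitted to 13317 genes with a log2 value of at least 1 in at least 3 libraries; a gene was called at a two-sided Benjamini-Hochberg adjusted p under 0.05 over all genes tested. The 7 members and the gene lists were chosen with earlier results of these data known; lists were chosen by role. Named genes were the 7 members, up to 4 tested genes of each list with the smallest p, Ppara, Por, Xist, Ddx3y, Kap and Slc7a13, the nearest tested neighbour on each side and up to 4 neighbours with the smallest p, and the 2 genes nearest each member in pattern; others are said to be added or complete a count, and some genes that the rule names are not reported here. Positions, exon overlaps and sequences came from GENCODE M21 (GRCm38), with the principal transcript of each gene; coding identity came from global alignment (Biopython 1.88). RefSeq positions are of GRCm38.p6. The series' design counts 3 mice per strain, but the labels tie no library to a mouse, so p-values measure the spread between these libraries, which may be technical. A chi-square test over genes gave 7.75 to 16.3 per degree of freedom for libraries of 1 strain, more than sampling noise. Alternatives were other pseudocounts, scalings, filters and variance priors, limma-voom, a replicate block, summed copies and leaving out each library.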

Additional observations from a re-analysis of the deposited data

How the results depend on the processing

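Of 13317 genes tested, 1211 were called (555 higher and 656 lower in BALB/c). The count was 493 without the trend in the variance prior, 855 without the filter on low values, 1068 with limma-voom on recovered reads and between 797 (without BALB/c replicate 1) and 1138 when 1 library was left out, and without B6 replicate 1 it was 806. Over all lists together 24 genes were called, 6 without the trend and between 17 and 30 with 1 library left out. Without the trend the calls of Acot2, Crot, Cyp2j5, Lta4h, Nudt19, Prlr, Ptgds, Slc12a3, Slc22a8, Slc5a1, Slc7a12 and Xist ended, and without the filter those of Cyp2j5, Prlr and Slc7a12. Calls were gained by Kap, Odc1, Miox and Akr1a1 without B6 replicate 2, Cyp2e1 and Cubn without B6 replicate 3, Adh1 without B6 replicate 1, Gatm and Slc34a1 without BALB/c replicate 3, and Miox also with limma-voom. Prlr also lost its call under a pseudocount of 0.5, the 3 other scalings and limma-voom. The cause was not tested.

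The strain folds of the 7 genes, where fitted, kept their direction under the other pseudocounts, scalings, filters and variance priors and limma-voom. Cyp4a12b and Cyp4a32 did not pass the alternative filter, a mean of at least 5 CPM, and have no fold under it. Summing close copies gave -0.33 in place of the fold of Cyp4a10, Cyp4a32 and Cyp4a31, and 3.29 in place of that of Cyp4a12a and Cyp4a12b, since the sum is led by its most abundant copies. With a pseudocount of 5 the fold of Cyp4a12a was 3.08 and that of Cyp4a31 -4.61. With 1 library left out the folds of the 7 genes ranged from 0.45 to 0.60 for Cyp4a10, 3.52 to 3.93 for Cyp4a12a, 0.02 to 0.46 for Cyp4a12b, 0.28 to 0.47 for Cyp4a14, -5.38 to -5.04 for Cyp4a31, -0.03 to 0.15 for Cyp4a32 and 0.11 to 0.57 for Cyp4b1. Genes without a call that changed sign then were Cyp4f14 (-0.14 to 0.53), Cyp4v3 (-0.014 to 0.25), Cyp4f13 (-0.069 to 0.15), Cyb5b (-0.16 to 0.034), Star (-0.028 to 0.64), Efcab14 (-0.021 to 0.070) and Cfd (-0.58 to 1.55, and -0.087 with a pseudocount of 5).

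The strains share replicate numbers in the labels, but same-numbered libraries did not deviate together, with correlations across genes of 0.01, -0.08 and -0.16, so the numbers are not taken as pairs. A fit with the replicate number as a block called 977 genes over the whole table and 22 in the lists. Depth limits Cyp4a32 and Cyp4a12b most, since a few reads move their values.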
